A study of Mus musculus with 75 samples.

Results

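The 54 genes described here encode the machinery that separates the chromosomes in mitosis. They were taken by name from a fixed list of checkpoint, kinase, kinetochore, kinesin, condensin and cytokinesis genes. The rule used no measured value, but the list was chosen with earlier results of these data known. They are 54 of the 24984 genes counted, and all 54 passed the filter on low counts in every RNA-seq experiment. They were followed through the replicative senescence of mouse skin fibroblasts in culture, from the first passage (P1) through P3 and P5 to P7, and after changing the transcription factors E2f4, Tead1 and Atf3. RNA was measured by RNA-seq in 44 libraries, and open chromatin by ATAC-seq in 13 samples.

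Per the labels, all cells were C57BL/6 skin fibroblasts. The passage libraries (4 per passage) came from untreated cells of 2-month-old female mice, which were split and regrown at each passage. For overexpression, pre-senescent P4 cells received a lentivirus that expresses E2f4 together with EGFP under doxycycline (2 libraries), or the vector with EGFP alone (2 libraries). For knockdown, cells received a lentiviral short hairpin RNA and were selected with puromycin. The E2f4 hairpin sh1 was given to P3 cells. The passage of the cells given the Tead1 hairpins sh3 and sh4 or the Atf3 hairpins sh5 and sh6 is not given in the labels. The paper describes the cells given the Atf3 hairpins as pre-senescent. Its methods name the passage between P5 and P7 for senescence interventions, and P3 and the passage before it for proliferating cells. They do not assign these to libraries, and the P4 of the overexpression is from the paper's results. Each hairpin and each set of non-targeting control cells (nt) had 3 libraries, and each experiment had its own control. The manipulated cells came from newborn and from 2-month-old mice, with the source of each library not given. Reads of Y-linked genes were present in every manipulated group and absent from the passage libraries. All lentivirally treated cells, controls included, carried an integrated virus. Nothing in the labels says whether replicates came from separate animals or cultures, so p-values measure only the spread between these libraries, which may be technical.

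Mitosis begins when Cdk1 with its cyclin, the Plk and Aurora kinases and the Cdc25 phosphatases drive the cell out of G2. Condensins and topoisomerase II compact and untangle the chromosomes, the kinetochore built on CENP-A links each centromere to the spindle, kinesins slide and depolymerise the microtubules, and the checkpoint proteins hold back Cdc20 until every chromosome is attached. Separase then cuts cohesin, the anaphase-promoting complex destroys its substrates, and the centralspindlin and anillin ring divides the cell. Transcription of these genes is known to be held down in quiescent cells by the DREAM complex, which contains E2F4 and binds the cell cycle genes homology region (CHR), and to be raised in G2 by B-MYB, FOXM1 and the CCAAT-binding factor NF-Y.

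Many of these promoters carry a CCAAT box and fewer carry a CHR, and 7 are printed to show which of these elements lie before genes that the results turn on. Each is the 150 bases before the start used in RefSeq's promoter table for GRCm38.p6, which for Pttg1 lies inside the annotated gene, written 5′ to 3′ on the strand of the gene, and capitals mark the CCAAT box (CCAAT, or ATTGG where it lies on the other strand) and the CHR (TTTGAA or TTCGAA, or TTCAAA on the other strand). Cdc20, Kif11 and Top2a fell with passage and show a CHR close to the start, Kif18b and Hmmr are at an extreme of the E2f4 experiments, and Bub3 and Pttg1 are the members that behaved differently over passage.
Cdc20, chr4:118437344-118437493, minus strand
Cdc20: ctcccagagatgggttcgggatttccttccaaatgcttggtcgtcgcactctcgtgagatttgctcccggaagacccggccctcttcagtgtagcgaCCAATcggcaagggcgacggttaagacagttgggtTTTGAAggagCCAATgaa
Kif11, chr19:37376232-37376381, plus strand
Kif11: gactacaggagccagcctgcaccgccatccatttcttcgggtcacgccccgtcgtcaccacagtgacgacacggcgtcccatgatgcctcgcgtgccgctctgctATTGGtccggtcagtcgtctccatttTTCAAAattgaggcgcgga
Top2a, chr11:99024190-99024339, minus strand
Top2a: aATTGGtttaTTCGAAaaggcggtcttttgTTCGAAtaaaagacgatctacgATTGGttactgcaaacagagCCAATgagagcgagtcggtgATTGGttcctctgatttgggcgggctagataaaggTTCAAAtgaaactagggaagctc
Kif18b, chr11:102925125-102925274, minus strand
Kif18b: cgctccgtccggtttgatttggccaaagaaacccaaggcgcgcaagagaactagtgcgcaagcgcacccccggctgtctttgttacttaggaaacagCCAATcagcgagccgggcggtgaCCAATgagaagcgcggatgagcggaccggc
Hmmr, chr11:40733438-40733587, minus strand
Hmmr: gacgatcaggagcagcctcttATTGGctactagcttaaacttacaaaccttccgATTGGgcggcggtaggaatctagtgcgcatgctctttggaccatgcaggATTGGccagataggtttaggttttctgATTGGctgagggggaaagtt
Bub3, chr7:131560220-131560369, plus strand
Bub3: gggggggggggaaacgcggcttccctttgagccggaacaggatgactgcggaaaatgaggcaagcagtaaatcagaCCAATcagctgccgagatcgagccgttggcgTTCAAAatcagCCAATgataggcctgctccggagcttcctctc
Pttg1, chr11:43425982-43426131, minus strand
Pttg1: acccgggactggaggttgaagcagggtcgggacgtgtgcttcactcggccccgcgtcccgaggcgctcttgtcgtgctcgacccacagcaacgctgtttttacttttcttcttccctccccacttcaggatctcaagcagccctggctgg

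In the 250 bases before the start, searched on both strands, 35 of the 47 members with a RefSeq promoter held a CCAAT box, which is 74.5% of them against 34.5% of all 27025 genes with a promoter. At least 2 such boxes were present in 21 members (44.7% against 10.5% of all genes). A CHR was present in 16 members (34.0% against 17.4%), and both elements in 14 (29.8% against 6.21%). Within 100 bases of the start the CHR was present in 12 members (25.5% against 6.68%) and the CCAAT box in 30 (63.8% against 20.3%). E2F-type sites were searched in the spelling TTGGCGC, in the common variant spelling TTCCCGC, in the related variant spelling TTGCCGC, and in the remaining variant spelling TTCGCGC. At least 1 of them was present in 5 members (10.6% against 7.97%). On the other strand TTGGCGC ends in CCAA and can overlap a CCAAT box. None of the 3 kinds was present in 9 members, among them Pttg1, Birc5, Mad2l1, Ndc80 and Anln (19.1% against 49.8%). For Pttg1 the bases searched lie inside the annotated gene. A match is a run of letters and not a measured binding site. The promoters of Smc4, Kif20a, Spc24, Aurkb, Incenp, Tpx2 and Cdc25c were not in the table.

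The libraries held between 9147324 and 27552949 counts on genes. Values below are CPM, counts scaled to library size with TMM factors, and RPKM, the same per kilobase of exon, where levels of different genes are compared. A member is said to have risen or fallen where edgeR's quasi-likelihood test gave a Benjamini-Hochberg adjusted p under 0.05 over all genes tested. The 10 fibroblast markers summed to 26500 to 28100 CPM at P1 and to 42100 CPM or more in every later passage library. At P1 other cell types were also visible, with 12 macrophage markers at 330 to 514 CPM in sum against 47 to 66.2 CPM at P3, and 8 keratinocyte markers at 56.7 to 362 CPM against 1.78 to 4.34 CPM. Their part in any difference from P1 was not tested, and P3 is given below as a second baseline.

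At P1 the members spanned a wide range of levels per length. Ube2c, the ubiquitin-conjugating enzyme of the anaphase-promoting complex, was highest at a mean of 68.6 RPKM, followed by Cks2, a small partner of Cdk1, at 58.5 RPKM, Top2a at 53.2 RPKM, Prc1 at 46.7 RPKM and Bub3 at 46.3 RPKM. Cenpk, an inner kinetochore protein, was lowest at 2.69 RPKM, with Pttg1 at 3.21 RPKM and Aspm at 4.60 RPKM. By P7 the order had changed, with Bub3 at 39.8 RPKM above Cks2 at 19.3 RPKM, Ube2c at 12.5 RPKM and Top2a at 5.92 RPKM.

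Over the whole course nearly every member fell. Between P1 and P7, 53 of the 54 members fell and 1 rose, where 31.9% of all 13442 genes tested fell and 30.5% rose. Of the members, 52 fell more than 2-fold, against 13.3% of all genes. The median member fell by 2.69 on the log2 scale, while the median of all genes was -0.01. Against P3 in place of P1, 53 members again fell and 1 rose, 52 of the falls were over 2-fold and the median was -2.53 (26.5% of all genes fell). In bulk RNA, fewer mitotic cells and less of these RNAs per mitotic cell cannot be told apart.

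**Figure D1:**
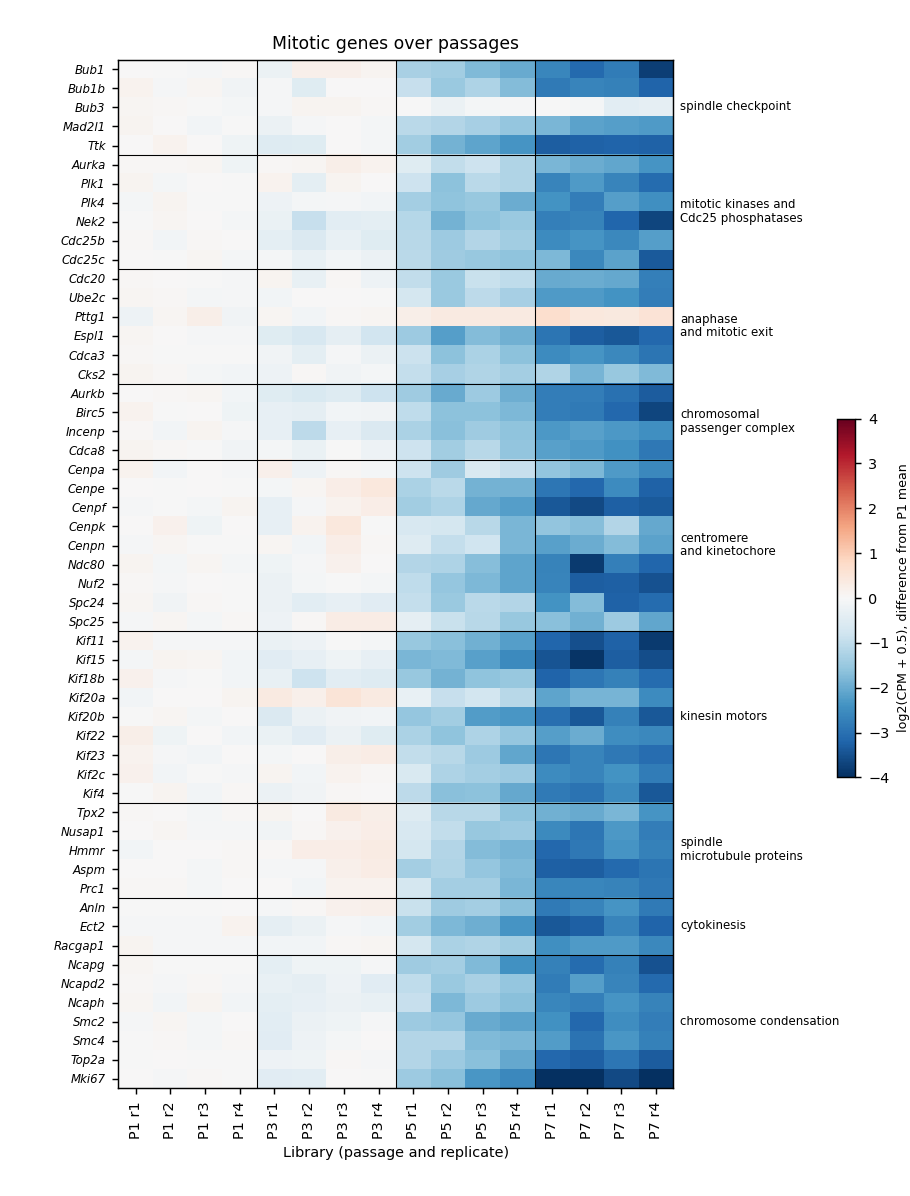
Heat map of the 54 members (rows, grouped by role) in the 16 passage libraries (columns), coloured by the difference in log2 CPM from the mean of the 4 P1 libraries. The columns of P1 and P3 look alike, those of P5 are darker blue in nearly every row and those of P7 darkest, and the rows of Bub3 and Pttg1 stay pale.

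Most of the fall came after P3, in 2 steps of similar size. From P1 to P3 only 7 members fell, against 17.5% of all genes, and the median member changed by -0.10 on the log2 scale. The 7 were the kinases Aurkb (log2 change -0.61) and Nek2 (-0.48), the phosphatase Cdc25b (-0.45), separase Espl1 (-0.57), the inner centromere protein Incenp (-0.54) and the kinesins Kif18b (-0.52) and Kif22 (-0.37). From P3 to P5, 52 members fell, 47 of them over 2-fold, with a median of -1.22 (15.3% of all genes fell, and 3.05% over 2-fold). From P5 to P7, 50 members fell, 44 of them over 2-fold, with a median of -1.35 (9.10% of all genes fell, and 2.28% over 2-fold). These steps share libraries at P3 and P5.

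Of the 52 members that ended over 2-fold lower, 30 had their largest step from P5 to P7, and 22 from P3 to P5. In the median member 4% of the log2 fall had happened by P3 (range -17.4 to 23.3%), 47.7% followed between P3 and P5, and 50% between P5 and P7. In all, 7 members fell in each of the 3 steps, 43 in 2, Cks2 and Cenpk in 1, and Bub3 and Pttg1 in none. The chromosomal passenger complex had the largest median change by P3 among the roles, -0.39 on the log2 scale, and the spindle microtubule proteins had a median of 0.12 at that step. Largest steps, shares of the fall and medians by role over passage are given without the GC correction described below. From P3 to P5 the log2 changes had a Spearman correlation with exonic GC content of 0.72 over the members and 0.43 over all genes. With the correction the median of that step went from -1.5 to -1.28 for the kinesins and from -1.46 to -1.19 for chromosome condensation. For the passenger complex it went from -1.1 to -1.18. Differences between roles were not tested.

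**Figure D2:**
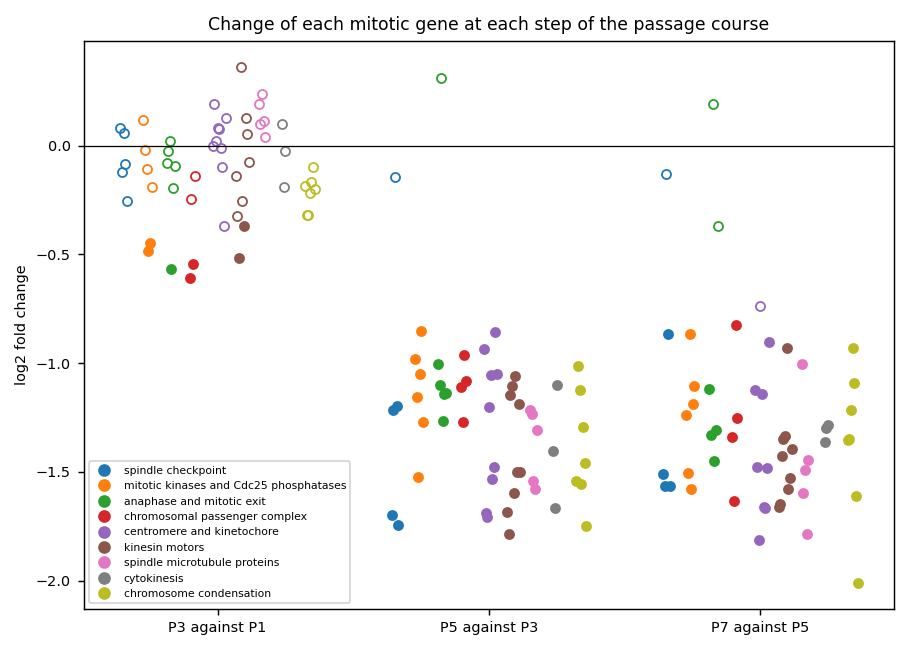
Log2 fold change of each member (points, coloured by role) at the steps P1 to P3, P3 to P5 and P5 to P7, with filled points where the adjusted p was under 0.05. The points of the first step lie around 0, with 7 filled, and those of the later steps lie mostly below -1, with Bub3 and Pttg1 nearest to 0 or above it.

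Among the spindle checkpoint genes all 5 fell by P7, with a median log2 change of -2.90. Ttk, the Mps1 kinase that starts the checkpoint signal (chr9:83834651-83872390), fell most. It was at 21.03, 23.3, 21.1 and 18.7 CPM at P1, at 14.5, 14.9, 21.1 and 19.97 CPM at P3, at 7.62, 5.25, 4.46 and 3.64 CPM at P5, and at 1.68, 1.77, 1.84 and 1.78 CPM at P7. P1 and P3 overlapped, and every P5 library was below both and above every P7 library. The log2 change from P1 to P7 was -3.56 (SE 0.210, adjusted p = 3.41e-11), an 11.8-fold fall. Bub1b, which encodes the Cdc20 inhibitor BubR1, went from 66.1, 58.0, 63.3 and 54.5 CPM at P1 to 8.09, 9.34, 8.91 and 6.09 CPM at P7 (log2 change -2.90, SE 0.171, adjusted p = 3.63e-11).

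Bub3 was the exception among them. It encodes the adaptor that carries Bub1 and BubR1 to the kinetochore, and lies at chr7:131560367-131571895. It was at 106, 103, 99.9 and 94.8 CPM at P1, at 98.7, 109, 108 and 105 CPM at P3, at 100.2, 86.5, 95.6 and 98.7 CPM at P5, and at 98.8, 95.4, 74.9 and 78.8 CPM at P7. The P1 and P7 libraries overlapped, and the fall by 0.22 on the log2 scale (SE 0.0893, adjusted p = 0.0421) passed the test only narrowly. Its promoter, printed above, holds a CHR and a pair of CCAAT boxes.

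All 6 genes of the mitotic kinases and Cdc25 phosphatases fell, with a median log2 change of -2.54. Plk1, the kinase that drives mitotic entry and spindle formation (chr7:122159435-122169884), was at 84.1, 73.3, 78.2 and 76.7 CPM at P1 and at 85.8, 59.0, 84.9 and 78.6 CPM at P3. It was at 43.4, 24.5, 36.8 and 33.6 CPM at P5 and at 12.1, 15.7, 12.1 and 8.76 CPM at P7, so that P5 and P7 each lay wholly below the passages before. The log2 change from P1 to P7 was -2.68 (SE 0.173, adjusted p = 1.05e-10). Nek2, a centrosome kinase, fell most in this class (-3.11, SE 0.198), from 47.1 to 53.2 CPM at P1 to 3.41 to 7.48 CPM at P7. Aurka, the spindle pole kinase, fell least (-2.10, SE 0.137), from 41.6 to 48.7 CPM to 8.61 to 12.7 CPM.

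In the anaphase and exit class 5 of 6 genes fell and 1 rose. Espl1, which encodes separase, fell most, from 54.9, 52.7, 50.0 and 50.3 CPM at P1 to 6.49, 4.86, 4.46 and 5.49 CPM at P7 (log2 change -3.29, SE 0.152, adjusted p = 2.03e-12). It was already at 30.3 to 40.2 CPM at P3, below every P1 library. Cdc20, the activator of the anaphase-promoting complex, was at 82.9, 81.5, 80.8 and 79.2 CPM at P1, at 87.1, 65.6, 84.1 and 70.2 CPM at P3, at 41.0, 28.6, 43.2 and 40.1 CPM at P5 and at 19.5, 20.1, 19.2 and 11.7 CPM at P7. Its P1 and P3 libraries overlapped and its later passages did not overlap with them (P7 against P1 -2.20, SE 0.151, adjusted p = 2.78e-10). Cks2 did most of its falling early, from 35.5 to 41.5 CPM at P3 to 15.6 to 20.5 CPM at P5, and its P7 libraries (10.9 to 17.3 CPM) overlapped with P5 (-0.37 from P5 to P7, adjusted p = 0.0568).

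Pttg1 moved the other way. It encodes securin, which holds separase inactive until anaphase (chr11:43420244-43427463). It was at 7.95, 9.65, 10.9 and 8.29 CPM at P1, at 9.73, 8.37, 9.48 and 9.73 CPM at P3, at 10.9, 11.8, 11.8 and 11.8 CPM at P5 and at 14.9, 12.3, 12.1 and 13.5 CPM at P7. Every P7 library was above every P1 library, a rise of 0.52 on the log2 scale (SE 0.122, adjusted p = 0.00101). No single step passed the test in the main fit, while with the GC correction Pttg1 rose from P3 to P5. The window printed above, which lies inside the gene, holds none of the elements searched, and the bases before the upstream end of the gene were not searched.

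All 4 genes of the chromosomal passenger complex, which corrects wrong attachments at the centromere, fell over 2-fold. Aurkb, its kinase, was at 48.8, 50.2, 50.9 and 44.5 CPM at P1, at 34.8, 31.9, 33.7 and 27.1 CPM at P3, at 17.7, 11.7, 17.4 and 12.2 CPM at P5 and at 6.64, 6.64, 5.69 and 4.38 CPM at P7. Here each passage lay wholly below the one before, with a log2 change of -3.06 from P1 to P7 (SE 0.154, adjusted p = 5.25e-12). Birc5, which encodes survivin, fell most (-3.15, SE 0.184), from 56.6 to 69.3 CPM at P1 to 4.45 to 8.93 CPM at P7. Incenp, the scaffold, fell least (-2.33, SE 0.138), from 86.5 to 100.1 CPM to 16.7 to 20.3 CPM.

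All 9 centromere and kinetochore genes fell, with a median of -2.71. Cenpf, a large protein of the outer kinetochore (chr1:189640606-189688107), was at 73.9, 75.3, 72.4 and 82.8 CPM at P1 and at 59.9, 72.8, 84.0 and 92.1 CPM at P3. It was at 28.4, 32.2, 17.96 and 16.2 CPM at P5 and at 6.87, 5.71, 7.38 and 6.90 CPM at P7. The P3 libraries spread around those of P1, and the later passages were below both (P7 against P1 -3.50, SE 0.195, adjusted p = 1.87e-11). Ndc80, the microtubule-binding subunit of the outer kinetochore, went from 29.6 to 34.2 CPM at P1 to 1.77 to 4.58 CPM at P7 (-3.21, SE 0.221). Cenpa, the centromeric histone H3 variant, went from 38.9 to 46.1 CPM to 6.53 to 13.6 CPM (-2.06, SE 0.187). Spc25, a partner of Ndc80, fell least (-1.83, SE 0.202), from 24.7 to 27.7 CPM at P1 to 5.79 to 9.30 CPM at P7. Cenpk fell by 1.86 on the log2 scale (SE 0.280) and was at 1.11 to 2.46 CPM at P7, overlapping with its P5 libraries at 1.39 to 3.81 CPM.

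The 9 kinesin motors had the largest median fall of all roles, -2.97. Kif15, a motor that helps to hold the spindle poles apart, fell most among them. It was at 35.6, 40.6, 39.7 and 34.8 CPM at P1, at 27.2, 30.0, 33.6 and 29.6 CPM at P3, at 10.1, 10.7, 7.95 and 6.09 CPM at P5 and at 2.98, 2.01, 3.38 and 2.75 CPM at P7. No 2 passages overlapped, although the step from P1 to P3 did not pass the test (-0.32, adjusted p = 0.0745), and P7 was 13.5-fold below P1 (-3.76, SE 0.172, adjusted p = 1.63e-12). Kif11, the motor Eg5 that makes the spindle bipolar, went from 101, 89.0, 87.2 and 87.2 CPM at P1 to 9.62, 7.56, 9.30 and 6.01 CPM at P7 (-3.49, SE 0.151). Kif20a, needed for cytokinesis, fell least (-2.09, SE 0.153). Of its exonic bases 66.4% are shared with Brd8 and Cdc23 on the opposite strand, and counting ignored strand, so its counts are uncertain.

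All 5 spindle microtubule proteins and all 3 cytokinesis genes fell. Aspm, a spindle pole protein, fell most of the former (-3.25, SE 0.133), from 50.7, 50.0, 47.6 and 51.8 CPM at P1 to 4.81, 4.63, 5.38 and 6.16 CPM at P7. Tpx2, which activates Aurka on the spindle, fell least (-2.03, SE 0.166), from 139 to 153 CPM to 28.4 to 41.7 CPM, after 150.2 to 189 CPM at P3. For cytokinesis, Ect2, the activator of RhoA, fell by 3.16 on the log2 scale (SE 0.178), from 78.1 to 90.2 CPM to 7.33 to 12.8 CPM. Anln, the scaffold of the contractile ring, fell by 2.67 (SE 0.141), from 214 to 221 CPM to 29.7 to 41.7 CPM, and Racgap1 of the centralspindlin fell by 2.41 (SE 0.127).

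All 7 genes of chromosome condensation fell. Mki67, which encodes the proliferation marker Ki-67 that coats mitotic chromosomes (chr7:135689784-135716450), fell most of all 54 members. It was at 329, 312, 334 and 319 CPM at P1, at 239, 241, 330.2 and 318 CPM at P3, at 118, 100.3, 63.8 and 54.3 CPM at P5 and at 20.2, 18.2, 25.7 and 19.2 CPM at P7. P3 overlapped with P1, the 4 P5 libraries spread over a 2-fold range below both, and P7 was 15.5-fold below P1 (-3.96, SE 0.206, adjusted p = 8.52e-12). Top2a, topoisomerase II alpha, went from 277, 283, 275 and 277 CPM at P1 through 122, 101, 87.2 and 67.4 CPM at P5 to 30.8, 28.6, 37.0 and 27.3 CPM at P7 (-3.17, SE 0.142). The condensin subunit Ncapg fell by 3.08 (SE 0.198), from 42.1 to 45.1 CPM to 3.34 to 6.22 CPM, and its partner Smc4 fell by 2.55 (SE 0.167), the least of the class. Ncapg shares 20.1% of its exonic bases with Lcorl on the opposite strand.

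Other genes of the same programme were taken as lists of fixed names. Of 69 other mitotic genes, 66 fell and 3 rose from P1 to P7, with a median of -2.25. Of 20 genes of the MCM helicase and origin licensing, 19 fell (median -2.27), and 15 of those 20 had already fallen by P3 (median -0.52), where 7 of the 54 members had. The share of the log2 fall reached by P3 had a median of 23.6% in 17 MCM and licensing genes against 4% in the members. Of 16 regulators of mitotic transcription 10 fell and 1 rose (median -0.49). They included Mybl2, which encodes B-MYB (-3.47), and Foxm1 (-2.998). Cdk1 fell by 2.39, Ccnb1 by 2.86 and Ccna2 by 3.25 on the log2 scale. E2f4 itself fell by 0.27 (adjusted p = 0.0122) and Atf3 rose by 0.93 (adjusted p = 0.00221), and Tead1 was at 0.12 above P1 (adjusted p = 0.418). From P1 to P3 Tead1 had risen by 0.44 (adjusted p = 0.0103).

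With E2f4 overexpressed, most of the module was higher. E2f4 was at 1118 and 1179.8 CPM against 35.5 and 47.5 CPM with the vector (log2 change 4.80), with reads from the introduced copy included. Of the 54 members 32 rose, 17 of them over 2-fold, and 6 fell, with a median of 0.52, where 28.9% of all 13199 genes rose, 7.69% over 2-fold, and 28.2% fell. All 4 passenger complex genes rose, as did 5 of 6 kinases and phosphatases and 4 of 6 anaphase genes, while in chromosome condensation 2 of 7 rose and 3 fell. With 2 libraries a group the comparison rests on few values.

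Kif18b, a kinesin that shortens astral microtubules (chr11:102905518-102925134), rose most, at 44.1 and 45.9 CPM against 12.7 and 15.0 CPM with the vector (log2 change 1.70, SE 0.136, adjusted p = 9.72e-06). Plk1 was at 99.0 and 102 CPM against 25.7 and 38.5 CPM (1.66, SE 0.167, adjusted p = 2.91e-05). Incenp was at 97.8 and 93.5 CPM against 31.3 and 38.1 CPM (1.47, SE 0.127, adjusted p = 1.47e-05). In each of them both E2f4 libraries were more than 2-fold above both vector libraries. Cdc20 was at 119 and 129 CPM against 43.0 and 47.5 CPM (1.46, SE 0.116), Aurkb at 48.7 and 50.7 CPM against 21.7 and 20.7 CPM (1.23, SE 0.1204), and Bub1b at 57.5 and 58.8 CPM against 28.2 and 28.5 CPM (1.03, SE 0.115).

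The genes that did not rise included several of the strongest passage responders. Mki67 was at 207 and 146 CPM with E2f4 and at 159 and 186 CPM with the vector, so the groups overlapped (0.04, adjusted p = 0.849). Kif11 was at 78.2 and 57.0 CPM against 73.4 and 62.4 CPM (-0.01, adjusted p = 0.979). Ncapg fell, at 27.8 and 20.1 CPM against 42.2 and 35.3 CPM (-0.69, SE 0.166, adjusted p = 0.00468), as did Smc4 at 96.8 and 65.4 CPM against 139 and 127 CPM (-0.71, SE 0.162, adjusted p = 0.00353). Cenpk was lowest of all at 4.69 and 3.54 CPM against 8.86 and 6.57 CPM (-0.90, SE 0.223, adjusted p = 0.00537). Kif20b, a kinesin of the midbody, Kif15 and the condensin subunit Smc2 were the other members that fell, with log2 changes of -0.52, -0.50 and -0.44. For Smc4, Ncapg and Smc2 both E2f4 libraries were below both vector libraries.

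The changes ran with the base composition of the genes. Exonic GC content ran from 39.4 to 56% over the members, and over the 54 members the log2 change with E2f4 overexpression had a Spearman correlation of 0.91 with it, a description over genes that share the same 4 libraries. The same correlation was 0.56 over all genes. Members below the median GC content had a median change of -0.01, and those above it 1.08. Smc4, Smc2 and Ncapg are the members with 39.4, 39.5 and 39.6% GC, while Plk1, Cdc20 and Kif18b have 55.9, 55.7 and 55.0%. The correlation with transcript length was -0.46.

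After a correction for the trend of all genes with GC content, added after the data had been seen, 45 members rose, no member fell, and the median was 0.84. In that fit, edgeR's quasi-likelihood test, 29.1% of all genes rose and 23.2% fell. Of the 45 rises 15 were over 2-fold. The corrected log2 changes ran from -0.19 for Cenpk (adjusted p = 0.421) to 1.39 for Kif18b. Smc4 was then at 0.19 (adjusted p = 0.122), Ncapg at 0.20 (adjusted p = 0.141) and Mki67 at 0.25 (adjusted p = 0.114), while Smc2 rose by 0.47. With a further correction for length 49 members rose (29.6% of all genes did). The rise of Plk1, Cdc20, Kif18b and Incenp over 2-fold was present with and without the correction, and the falls of the 6 low-GC members were present only without it. The correlation with GC content over the members was still 0.64 after the correction, and 0.01 over all genes.

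**Figure D3:**
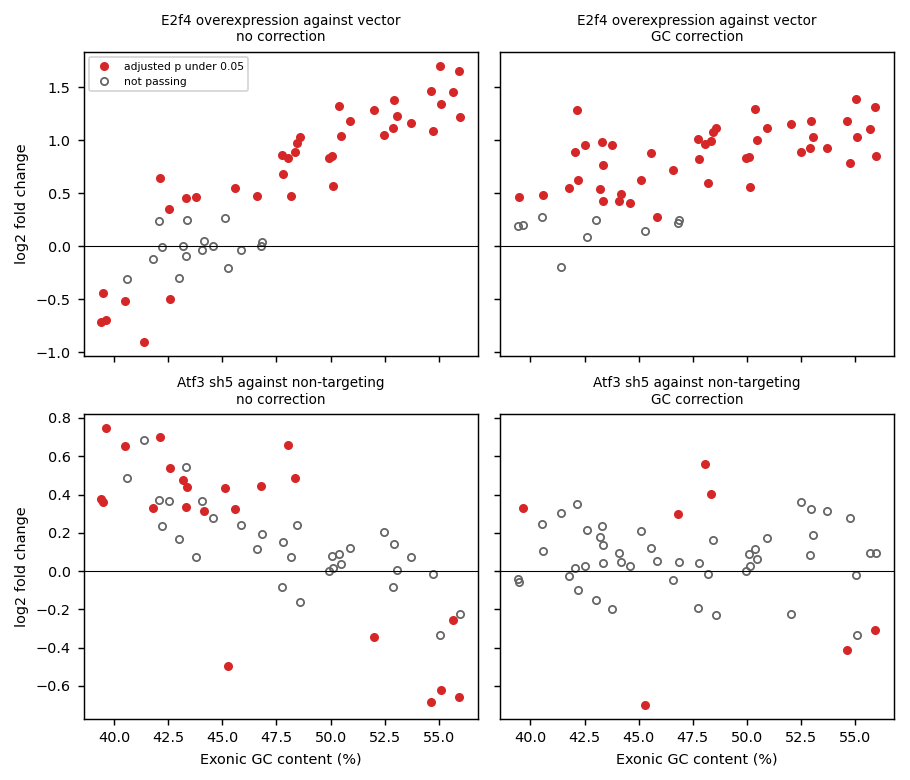
Log2 fold change of the 54 members against exonic GC content (percent), for E2f4 overexpression and for Atf3 sh5, without and with the GC correction, with filled red points where the adjusted p was under 0.05. In the uncorrected panels the points climb with GC content for E2f4 overexpression and descend for Atf3 sh5, and in the corrected panels the slope is shallower for E2f4 overexpression and flat for Atf3 sh5.

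The groups of this experiment also differed in other respects. The 4 Y-linked genes Ddx3y, Eif2s3y, Kdm5d and Uty summed to 15.8 to 20.3 CPM with E2f4 and to 66.7 to 67.8 CPM with the vector, and Xist was at 560 to 686 CPM against 1156 to 1400 CPM, so reads of both kinds were present in both groups. The 9 skeletal muscle markers summed to 23.8 to 24.7 CPM against 68.4 to 78.7 CPM, with Myh3, Myh8, Myog, Myod1 and Actc1 at 0 in all 4 libraries. The part of these differences in the members' changes was not tested.

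Lowering E2f4 gave small changes, most of them negative. E2f4 was at 21.6, 20.4 and 21.8 CPM with sh1 and at 59.6, 60.8 and 59.6 CPM with the non-targeting hairpin (log2 change -1.50, adjusted p = 2.14e-07). In all, 28 members fell, where 7.79% of all 12310 genes fell. The largest fall was 0.64 on the log2 scale, so none reached 2-fold (0.211% of all genes fell over 2-fold), and the median was -0.32. Of the kinesins 8 of 9 fell, of the cytokinesis genes 3 of 3 and of the condensation genes 5 of 7, against 1 of 5 checkpoint genes, 1 of 4 passenger complex genes and 2 of 9 kinetochore genes. Differences between roles were not tested. The checkpoint genes Ttk (-0.38), Mad2l1 (-0.32), Bub1b (-0.28) and Bub3 (-0.15) did not pass, but each had every sh1 library below every control library. The count was 16 without nt replicate 1 or without nt replicate 3, and 17 without sh1 replicate 2.

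Ncapd2, a condensin subunit, was at 68.3, 56.3 and 59.4 CPM with sh1 and at 101, 93.8 and 92.5 CPM in the control (-0.64, SE 0.0843, adjusted p = 0.000141). Hmmr, a spindle assembly factor, was at 28.6, 28.5 and 29.4 CPM against 45.0, 40.4 and 49.5 CPM (-0.64, SE 0.0983, adjusted p = 0.000459). Kif18b was at 15.6, 12.8 and 16.7 CPM against 19.6, 22.6 and 27.3 CPM (-0.62, SE 0.145, adjusted p = 0.00843). In all of these every sh1 library was below every control library. Mki67 behaved likewise at 102, 89.7 and 104 CPM against 145, 135 and 159 CPM (-0.57, SE 0.0793, adjusted p = 0.000208), as did Top2a at 133, 128 and 109 CPM against 183, 177 and 182 CPM (-0.55, SE 0.0746) and Plk1 at 47.6, 42.8 and 46.0 CPM against 63.3, 61.4 and 62.9 CPM (-0.46, SE 0.0816). The members with the highest values were Cenpk (0.20, adjusted p = 0.670), Nek2 (0.10, adjusted p = 0.635) and Pttg1 (0.08, adjusted p = 0.770), whose groups overlapped.

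In this experiment the members' changes did not follow GC content (Spearman correlation -0.02), and 28 members fell with the GC correction as well. Muscle markers summed to 118 to 141 CPM with sh1 against 76.6 to 79.2 CPM (Myog and Myod1 at 0 in every library), and fibroblast markers to 37300 to 39400 CPM against 47200 to 47500 CPM. Their part was not tested.

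The overexpression and the knockdown had separate controls. Taking both, 15 members rose with E2f4 and fell with sh1, where 3.86% of the 12227 genes tested in both did, and 36 of 54 had a positive change with E2f4 and a negative one with sh1, where 28.8% of all genes did. With the GC correction these counts were 24 (3.95% of all genes) and 49 (29.6%). Without it 13 members were negative in both experiments, where 22.5% of all genes were. Kif15, Ncapg and Smc2 fell in both, where 1.46% of all genes did, with log2 changes of -0.44, -0.48 and -0.42 with sh1. With the GC correction they were at 0.09, 0.20 and 0.47 with overexpression. The sizes of the changes had a Spearman correlation of 0.01 over the 54 members, or 0.08 with the correction, as a description over genes. Kif18b, Plk1, Aurkb, Espl1 and Ncapd2 are among the 15. Mki67 and Hmmr fell with sh1, and their values with overexpression were 0.04 and -0.12 (adjusted p = 0.849 and 0.525). Of the MCM and licensing genes, 16 of 20 rose with E2f4 and 12 fell with sh1, and of the other mitotic genes 39 of 69 rose, 8 fell and 24 fell with sh1. Of all genes tested, 28.9% rose and 28.2% fell with E2f4, and 7.79% fell with sh1. The counts for these lists are without the GC correction.

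**Figure D4:**
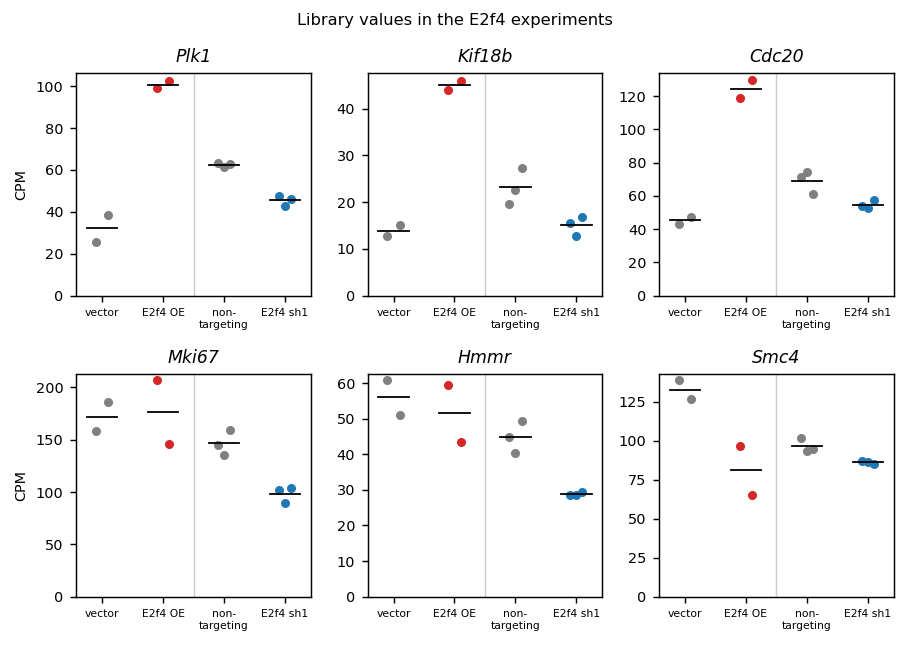
CPM of Plk1, Kif18b, Cdc20, Mki67, Hmmr and Smc4 in each library of the E2f4 overexpression (vector, E2f4) and E2f4 knockdown (non-targeting, sh1) experiments, with a bar at each mean. Plk1, Kif18b and Cdc20 lie above the vector libraries with E2f4, Smc4 lies below them and Mki67 overlaps with them, and with sh1 the libraries of all 6 genes lie below those of the control.

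Tead1, a TEAD factor of the Hippo pathway, was at 268, 284 and 285 CPM with sh3, at 315, 313 and 320.4 CPM with sh4 and at 572, 508 and 545 CPM in the control. With sh3, 8 members fell and 2 rose, where 17.7% of all 13012 genes fell and 17.6% rose, and the median member changed by -0.09. The count of 10 was 5 without sh3 replicate 1 and 6 without nt replicate 1. Prc1, the bundler of the central spindle, fell most, at 63.4, 58.7 and 58.6 CPM against 80.1, 74.3 and 78.9 CPM (-0.37, SE 0.0536, adjusted p = 1.82e-06). Prc1 shares 22.7% of its exonic bases with Rccd1 on the opposite strand. Bub1 (-0.30), Mki67 (-0.28), Ncapg (-0.27), Plk1 (-0.26), Aurka (-0.23), Smc2 (-0.14) and Top2a (-0.14) also fell. Spc25 rose, at 17.5, 18.03 and 18.9 CPM against 11.8, 14.3 and 15.72 CPM (0.38, SE 0.0969, adjusted p = 0.00247), and so did Cenpf (0.19, adjusted p = 0.0410), whose groups overlapped.

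With sh4, 15 members rose, where 14.4% of all genes rose and 14.7% fell, and the median was 0.13. Cenpk was highest, at 4.48, 4.73 and 4.96 CPM against 3.35, 3.00 and 3.46 CPM (0.53, SE 0.183, adjusted p = 0.0291). Spc25 was at 19.0, 18.5 and 18.9 CPM (0.43, SE 0.0961) and Cenpf at 41.0, 35.7 and 39.9 CPM against 32.3, 27.6 and 28.8 CPM (0.40, SE 0.0728), and Cdc25b rose by 0.38. The lowest members were Bub1 (-0.24, adjusted p = 0.0843), Aurka (-0.11) and Pttg1 (-0.11). Top2a rose, at 153, 151 and 159 CPM against 139.6, 134 and 137 CPM (0.17, SE 0.0432), where with sh3 it fell to 120.5, 127 and 126 CPM. Without sh4 replicate 3 the count was 10.

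The hairpins differed from each other on these genes. Taking sh4 against sh3 directly, 17 members were higher, against 3.34% of all genes higher and 4.03% lower, with a median of 0.21. Top2a (0.31, SE 0.0435, adjusted p = 2.46e-05), Prc1 (0.29), Plk1 (0.33), Birc5 (0.36) and Mki67 (0.28) were among them. The largest difference, Cenpk at 0.55, did not pass (adjusted p = 0.0615). The count was 7 without sh3 replicate 1, 8 without sh4 replicate 1 and 10 without sh4 replicate 3. Spc25 and Cenpf were the members that rose with both hairpins, named here without the share of all genes that did. These calls are not independent, because both hairpins were compared with the same control libraries, and their target sequences in the paper's supplement overlap. No member changed over 2-fold with either Tead1 hairpin, where 2.71% of all genes did with sh3 and 1.53% with sh4.

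**Figure D5:**
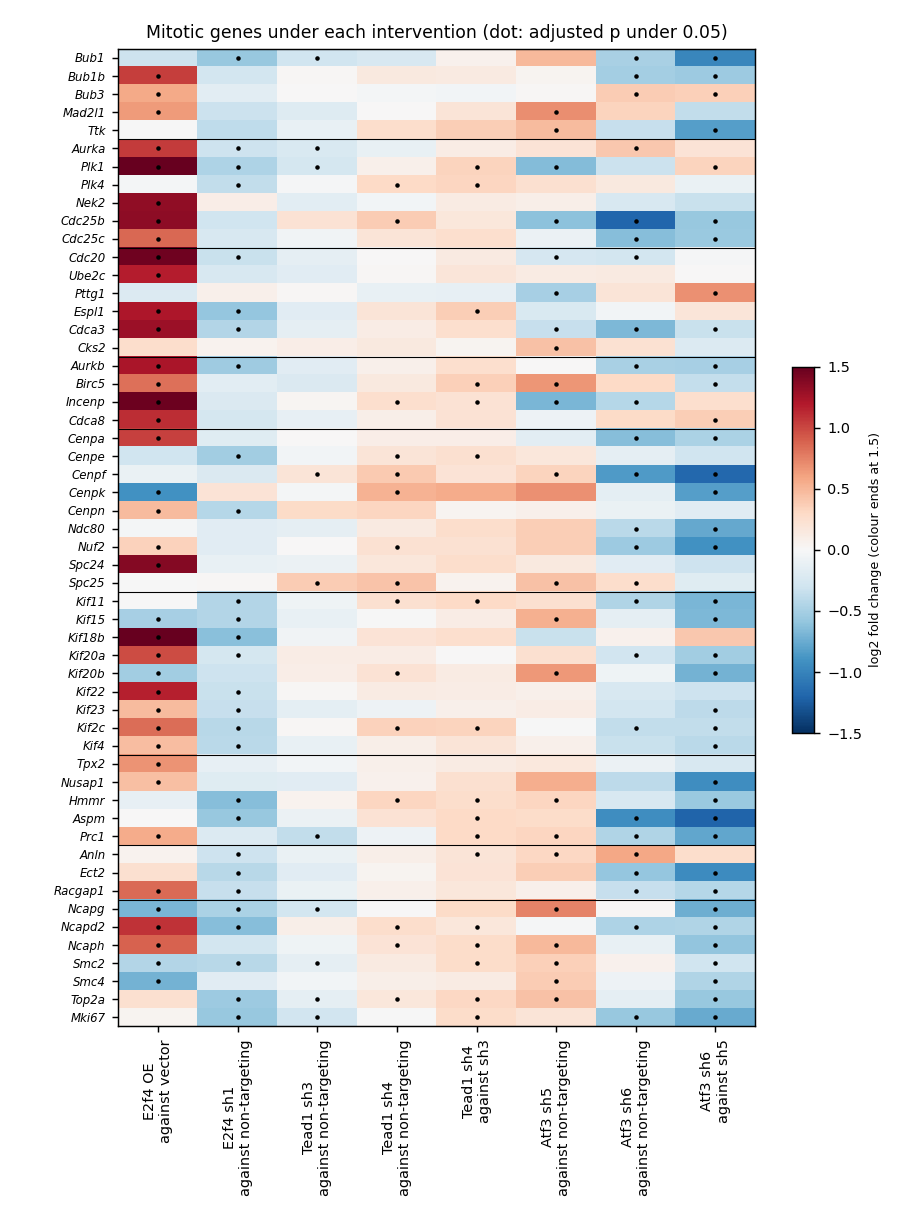
Heat map of the log2 fold change of the 54 members (rows) in the 8 comparisons of manipulated cells (columns), with a dot where the adjusted p was under 0.05. The E2f4 overexpression column is mostly red with blue rows in chromosome condensation, the E2f4 sh1 column is pale blue, and the paired hairpins against Tead1 or Atf3 differ in colour.

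Atf3, a stress-induced subunit of AP-1, was low in this experiment, at 1.46, 2.10 and 0.451 CPM with sh5, at 1.51, 1.56 and 2.09 CPM with sh6 and at 3.31, 2.85 and 2.77 CPM in the control. Every hairpin library was below every control library, and the log2 change was -1.14 with sh5 (adjusted p = 0.0447) and -0.79 with sh6, which did not pass (adjusted p = 0.114).

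Of the sh5 libraries, replicate 3 stood apart. Its counts differed from those of replicates 1 and 2 by a chi-square per degree of freedom of 55.92 and 59.94, against 3.2 between those. HTSeq's summary rows took 16.761% of its reads against 13.105 and 12.486%, and the members summed to 1759 CPM (here without TMM factors) against 1551.9 and 1479.2 CPM. Without it 17 members rose and 3 fell, with a median of 0.169. Its part in the changes was otherwise not tested.

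With all 3 libraries of sh5, 16 members rose and 6 fell, where 17.7% of all 13345 genes rose and 18.1% fell, and the median was 0.20. With the size factors of DESeq2 the split was 18 and 3. Ncapg rose most, at 20.1, 16.2 and 22.2 CPM against 11.9, 10.2 and 12.7 CPM (0.75, SE 0.138, adjusted p = 0.00337), followed among the members that passed by Mad2l1, a checkpoint protein (0.70), and Birc5 at 22.1, 21.7 and 28.2 CPM against 14.8, 16.3 and 14.6 CPM (0.66). Cenpk was at 0.68 (adjusted p = 0.0923). Incenp fell most, at 20.7, 22.1 and 17.2 CPM against 27.4, 35.5 and 33.5 CPM (-0.68, SE 0.128, adjusted p = 0.00363), and Plk1 was at 18.8, 19.2 and 14.5 CPM against 26.0, 30.1 and 26.9 CPM (-0.66). Cdc25b (-0.62), Pttg1 (-0.50), Cdca3 (-0.34) and Cdc20 (-0.25) also fell.

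The changes with sh5 followed GC content in the opposite direction to those with E2f4 overexpression, with a Spearman correlation of -0.78 over the members and -0.64 over all genes. With the GC correction 7 members passed. Birc5 (0.56), Ncaph (0.40), Ncapg (0.33) and Spc25 (0.30) were higher, and Pttg1 (-0.70), Incenp (-0.41) and Plk1 (-0.31) lower, where 12.5% of all genes were higher and 13.3% lower. The count of 22 was also 6 without nt replicate 2 or without nt replicate 3, and 13 without nt replicate 1.

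With sh6 the balance was the other way, with 21 members lower and 4 higher, where 26.0% of all genes were lower and 23.8% higher, and the median was -0.24. Cdc25b, a phosphatase that activates Cdk1, fell most, at 7.67, 7.97 and 9.99 CPM against 19.2, 19.3 and 19.997 CPM (-1.19, SE 0.174, adjusted p = 0.000263), and was the member that fell over 2-fold (10.9% of all genes did). Aspm was at 7.90, 10.1 and 8.42 CPM against 15.6, 19.5 and 15.2 CPM (-0.93, SE 0.156), and Cenpf at 11.4, 10.8 and 12.3 CPM against 20.8, 21.3 and 19.8 CPM (-0.84, SE 0.112). In these the hairpin and control libraries did not overlap. Mki67 also fell, at 48.9, 54.1 and 56.7 CPM against 77.1, 87.1 and 72.0 CPM (-0.56). Anln rose, at 86.5, 97.9 and 96.4 CPM against 61.8, 65.3 and 61.1 CPM (0.58, SE 0.105, adjusted p = 0.00107), as did Aurka (0.41), Bub3 (0.38) and Spc25 (0.26). With the GC correction 27 were lower and 6 higher, where 28.8% of all genes were lower and 28.6% higher. The count of 25 was 15 without sh6 replicate 1 and 16 without nt replicate 2.

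Taking sh6 against sh5 directly, 33 members were lower and 4 higher, where 26.6% of all genes were lower and 25.9% higher. Aspm (-1.21, SE 0.156, adjusted p = 0.000118), Cenpf (-1.18, SE 0.112, adjusted p = 1.50e-05) and Bub1 (-0.98) differed most, Aspm and Cenpf by over 2-fold (9.39% of all genes were over 2-fold lower), and all 7 condensation genes and 7 of 9 kinesins were lower. Pttg1 (0.69), Cdca8 (0.37), Bub3 (0.36) and Plk1 (0.33) were higher. These differences had a Spearman correlation with GC content of 0.55 over the members and 0.32 over all genes. With the GC correction 30 were lower and 3 higher, where 27.6% of all genes were lower and 27.9% higher. Both hairpins were compared with the same control libraries, so calls with both are not independent. Anln rose with both hairpins, as did Spc25, and Incenp, Cdc25b, Cdca3 and Cdc20 fell with both. The share of all genes called alike with both is not given, so these members are only named. Of these 6, Spc25 (0.30 with sh5 and 0.25 with sh6) and Incenp (-0.41 and -0.38) passed with both hairpins after the GC correction, while with sh5 Anln was at 0.05 (adjusted p = 0.683) and Cdc25b at -0.34 (adjusted p = 0.0861). Marker sums also differed, with skeletal muscle at 18.3 to 19.5 CPM with sh5, 200 to 217 CPM with sh6 and 40.4 to 42.7 CPM in the control (Myh8 at 0 in every group), and adipocyte markers at 178 to 202, 34.8 to 52.8 and 126 to 162 CPM. In the same order the 4 Y-linked genes summed to 199 to 238, 213 to 237 and 158 to 183 CPM, and Xist was at 407 to 464, 199 to 269 and 301 to 327 CPM. Their part was not tested.

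The start sites of the members lay in open chromatin at every passage. All 54 members had an ATAC-seq peak within 1000 bases of a start site in all 13 samples, against 58.1% of 24865 genes. Peak height was taken as log2 of the fold enrichment over background at the strongest such peak. At P1, 44 of the 54 members were above the median height of all genes with a peak (median 3.74 against 3.35). By limma, 5 members were higher at P7 than at P1 and 1 lower, where 8.01% of 14449 genes were higher and 8.48% lower, and the median member changed by 0.09. Racgap1 rose by 0.39 (SE 0.115, adjusted p = 0.0350), with a fold enrichment of 7.66, 7.95, 7.96 and 9.63 at P1 and of 9.26, 14.4 and 12.9 at P7, so the groups overlapped before scaling. Bub3 (0.32), Ndc80 (0.28), Kif2c (0.27) and Cdca8 (0.25) were also higher, and Kif20b was lower (-0.34, adjusted p = 0.0406). Mki67, whose RNA fell most, had a fold enrichment of 10.7, 14.1, 11.5 and 11.4 at P1 and of 13.1, 16.6 and 15.5 at P7. Leaving out any 1 sample of P1 or P7 left 1 to 3 members. The balance of directions turned with the scaling, with 5 higher and 10 lower (median -0.503) by the percentile of −log10 p, and 20 higher (median 0.30) without quantile normalization. Shares of all genes under these other measures are not given, so the counts cannot be read as particular to the members. Against P3, limma called 0 members at P7, where 6.30% of all genes changed, and at an unadjusted p under 0.05 it had 6 higher and 3 lower.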

How the data were processed

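RNA-seq libraries (44) and ATAC-seq samples (13) were used, grouped by their labels. Per the submitters' processing notes, reads were trimmed with Trimmomatic 0.39, aligned to mm10 with HISAT2 2.2.1 and counted with HTSeq 0.12.4. The deposited values are raw read counts per gene symbol, counted by the authors without regard to strand, so overlapping antisense genes cannot be told apart. HTSeq's summary rows, between 7.5 and 16.761% of reads in 28 libraries and absent in 16, were left out. For ATAC-seq the authors aligned with Bowtie2 2.3.5.1 and called peaks per sample with MACS2, and the deposited peak lists hold a fold enrichment and a −log10 p for each summit. Reads per peak are not listed there, which leaves sequencing depth for ATAC-seq unknown.

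Each RNA experiment was fitted on its own over all groups, with edgeR 4.0.16 (filterByExpr, TMM, quasi-likelihood F-test, without a replicate block) in R 4.3.3, and p-values were adjusted by Benjamini-Hochberg over all genes tested (12310 to 13442). A call is an adjusted p under 0.05. Promoter peak height was log2 of the fold enrichment of the peak with the largest −log10 p within 1000 bases of a start. It was quantile normalized and tested with limma 3.58.1, also with Benjamini-Hochberg adjustment. Both tests were tested on simulated data. Totals on genes ran from 9147324 to 27552949 counts. Precision is given by the spread between libraries.

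The members and lists were chosen with earlier results of these data known. Members named are those with the largest and smallest change from P1 to P7 in each role, the 3 highest and 3 lowest in each manipulation, every member that passed against the direction of most, and a fixed list (Mki67, Top2a, Cdc20, Plk1, Aurkb, Bub1b, Cenpa, Ndc80, Kif11, Ncapg and Anln). Other members are named where few passed. The alternatives were DESeq2 1.42.0, its size factors in edgeR, other filters on counts, a replicate block, only the groups compared, leaving out each library, and other peak measures and windows. The corrections for GC content and length (a smooth trend over all genes, entered as an offset) and the P3 baseline were chosen after seeing the data. Sequences and coordinates are from RefSeq GRCm38.p6, the assembly of mm10.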

Additional observations from a re-analysis of the deposited data

Results flagged for a closer look

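In groups of 4 libraries, a library was singled out where its gap to the nearest other one took up more of the group's range than Dixon's 95% critical value allows, which chance gives in about 1 in 20 groups. Of 216 groups (each member at each passage) 10 were singled out. At P1, Aurka was at 41.644 CPM in replicate 4 against 47.9 to 48.7 CPM in the others, Kif11 at 101.295 CPM in replicate 1 against 87.2 to 89.0 CPM, and Ect2 at 90.157 CPM in replicate 4 against 78.1 to 78.9 CPM. Also at P1, Racgap1 was at 139.512 CPM in replicate 1 against 125 to 126 CPM, and Ncapg at 45.066 CPM in replicate 1 against 42.1 to 42.4 CPM. At P3, Bub1b was at 42.527 CPM in replicate 2 against 58.8 to 60.9 CPM, and Ube2c at 59.737 CPM in replicate 1 against 63.5 to 64.1 CPM. At P5, Birc5 was at 30.95 CPM in replicate 1 against 17.7 to 19.9 CPM, and Pttg1 at 10.92 CPM in replicate 1 against 11.8 CPM in each of the others. At P7, Cdc20 was at 11.728 CPM in replicate 4 against 19.2 to 20.1 CPM.

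The hairpins against 1 factor differed from each other in the same fit. Between Tead1 sh4 and sh3 the change of 17 members differed, all higher with sh4, and between Atf3 sh6 and sh5 that of 37 members differed, 33 lower and 4 higher with sh6, by edgeR's quasi-likelihood test.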

How the results depend on the processing

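The counts of changed members (either direction) from P3 to P5, P5 to P7 and P1 to P7, with E2f4 overexpression, with E2f4 sh1, with both Tead1 hairpins, with Atf3 sh6 and between the hairpins stayed within 1.5 times their values under every alternative but leaving out a library. From P1 to P3, 12 members changed with the GC correction or with GC and length, and 17 with only those groups fitted. With Atf3 sh5 the 22 became 7 with the GC correction and 6 with GC and length. Peak height from P1 to P7 gave 15 members (5 higher, 10 lower) by the percentile of −log10 p and 20, all higher, without quantile normalization. From P3 to P7 it gave 5 (1 higher, 4 lower) and 27, all higher, and 1 with a window of 500 bases. No shares of all genes are given beside these peak counts, so they cannot be read as particular to the members. The cause of the differences between settings was not tested.

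Leaving out each library in turn gave 5 to 7 members from P1 to P3, 52 to 52 from P3 to P5, 50 to 52 from P5 to P7, 53 to 54 from P1 to P7, and 33 to 40 with E2f4 overexpression, where the lone library left in a group is assumed to vary like the others. It gave 16 to 30 with E2f4 sh1, 5 to 12 with Tead1 sh3, 10 to 16 with sh4, 7 to 20 between them, 6 to 21 with Atf3 sh5, 15 to 23 with sh6, 25 to 37 between them, 1 to 3 for peak height from P1 to P7 and 0 to 1 from P3 to P7.

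Replicate numbers did not pair the samples (correlations of same-numbered libraries between -0.262 and 0.267). With the replicate number as a block, 7, 52, 51 and 54 members changed from P1 to P3, P3 to P5, P5 to P7 and P1 to P7, 42 with E2f4 overexpression, 27 with sh1, 11, 15 and 16 for Tead1 sh3, sh4 and between them, 14, 24 and 36 for Atf3 sh5, sh6 and between them, and 3 and 0 for peak height.

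Changes that turned their sign were all under the GC corrections. With GC, then with GC and length, E2f4 overexpression gave Kif15 0.09 and 0.136, Kif20b 0.28 and 0.341, Ncapg 0.199 and 0.207, Smc2 0.465 and 0.521, and Smc4 0.194 and 0.312. Atf3 sh5 gave Cdc20 0.096 and 0.064, Hmmr -0.026 and -0.025, Smc2 -0.058 and -0.031, and Smc4 -0.043 with GC alone. Between the Atf3 hairpins Smc2 was at 0.042 and 0.069, and Plk1 at -0.008 with GC and length.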
